A study of Saccharomyces cerevisiae with 12 samples.

Results

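The RNA levels of 10 yeast genes of endoplasmic reticulum (ER) protein folding and of the unfolded protein response were followed through a shift from 25 °C to 37 °C. The 10 genes were KAR2, LHS1, SIL1, SCJ1, JEM1, PDI1, EUG1, ERO1, HAC1 and IRE1. Each was taken by name from the platform's annotation, through the probe set with a plain name (ending in _at) and the highest mean signal among those assigned to that gene alone. All 10 were found, and they are 10 of 5656 genes that had a probe set of their own among the 9298 probe sets tested. The study used Affymetrix Yeast S98 arrays, 1 for each of 12 cultures. Strain SH100, the wild type (WT), and strain SH121 (MU), whose TOR2 gene is a temperature-sensitive allele, were grown in rich glucose medium at 25 °C (0 h) or kept at 37 °C for 2 h or 6 h. TOR2 codes for a protein kinase of growth control and actin organization. Each of the 6 groups held 2 independently grown cultures, A and B, harvested within the same range of cell density. As the study describes them, the strains are isogenic and the allele of MU impairs the function that TOR2 does not share with TOR1. Such an allele acts on the protein, so the level of TOR2 RNA does not report the loss of function. Temperature, time at 37 °C and separate culture go together in every comparison with 0 h and cannot be told apart.

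Proteins that enter the ER fold with the help of the Hsp70 chaperone Kar2, known as BiP in animals, and form their disulfide bonds through Pdi1 and Ero1. When unfolded proteins accumulate there, the transmembrane kinase and endonuclease Ire1 cuts an intron out of HAC1 RNA, the tRNA ligase Trl1 joins the ends, and the Hac1 transcription factor made from the spliced RNA raises the transcription of KAR2, PDI1, EUG1, ERO1, LHS1 and many other genes. KAR2 is also known to respond to heat through a heat shock element. The arrays measured the total signal of each probe set and not the splicing of HAC1.

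None of the 10 genes, each read on its chosen probe set, passed the test in any of the 11 comparisons run on all 12 arrays. In WT at 2 h, where 8.65% of all probe sets passed (limma, adjusted p under 0.05), 0 of the 10 did, and the same count of 0 was found at 6 h against a background of 19.3%. In MU the counts were 0 of 10 at 2 h, with 7.98% of all probe sets called, and 0 of 10 at 6 h, with 22.0% called. At an unadjusted p under 0.05, limma gave 1 gene in WT at 2 h (background 24.8%), 0 in WT at 6 h (33.6%), 0 in MU at 2 h (23.8%) and 1 in MU at 6 h (35.8%), and the rank difference method, at an adjusted p under 0.10, gave 0 of the 10 genes in WT at 2 h (background 10.1%) and 6 h (17.6%) and in MU at 2 h (12.4%) and 6 h (16.4%). The 6 group means of a gene spanned 0.18 to 0.54 on the log2 scale, with a median of 0.30, against a median of 0.71 over all probe sets. The median gap between duplicate cultures was 0.17 for the 10 genes and 0.21 for all probe sets. Medians and shares over all probe sets, here and below, include those at or near the lowest intensity. They were not matched to the 10 genes for signal level. Across the arrays as a whole, duplicates correlated with r between 0.970 and 0.978 (Pearson, log2 signals) and the array medians lay between 72.05 and 75.95. Every fitted change is relative to the other probe sets, since the arrays were quantile-normalized. Signals are printed as deposited, and over 90 differences between groups of the 10 genes the fitted log2 value differed from that of the printed signals by at most 0.0841, with a median of 0.0101. The widest was that of IRE1 in WT at 2 h, -0.27 from the signals and -0.35 in the fit, and 3 values close to 0 differed in sign.

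**Figure D1:**
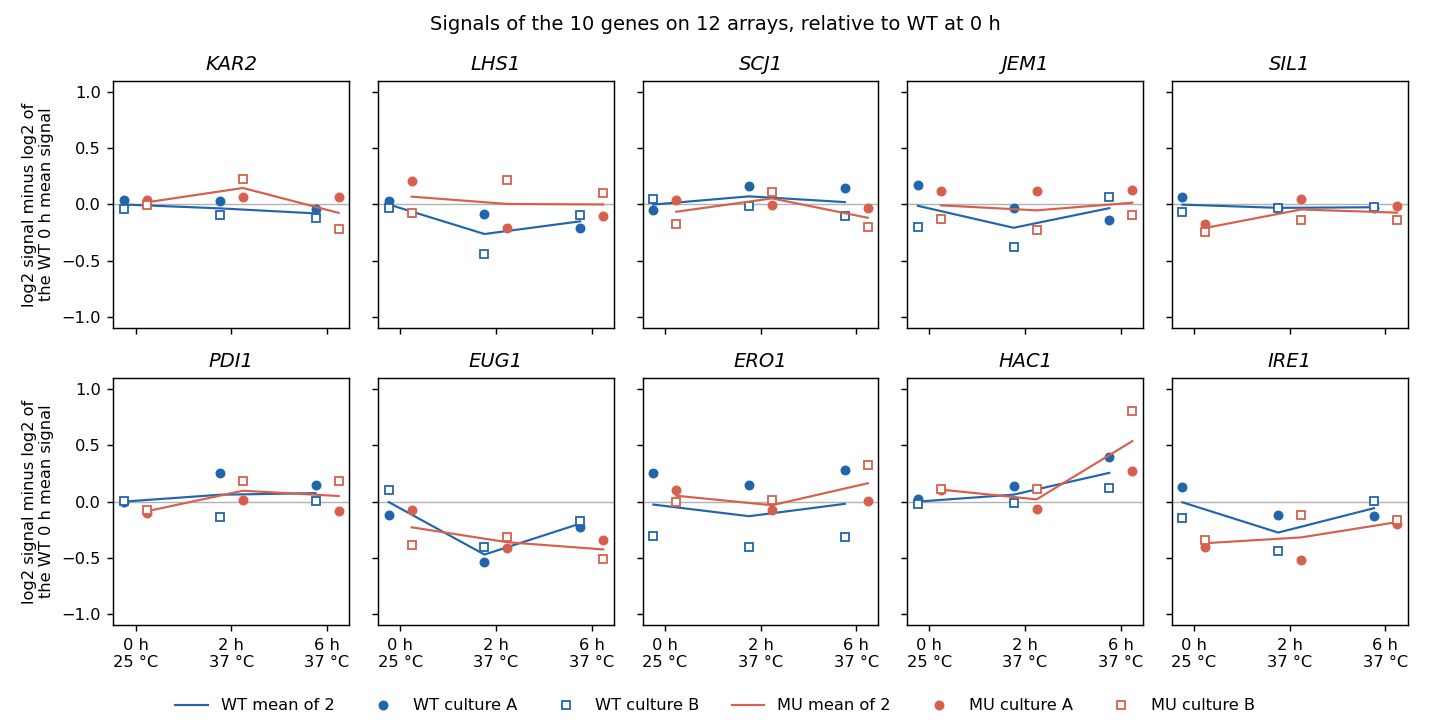
Signals of the 10 genes on the 12 arrays, as log2 of the signal minus log2 of the mean WT signal at 0 h (vertical axis), at 0 h (25 °C), 2 h and 6 h (37 °C) on the horizontal axis; filled circles are cultures A, open squares cultures B, and lines join the group means of WT (blue) and MU (red). All points lie between -1 and 1, the highest is HAC1 in MU culture B at 6 h (1058.3 signal units), and in ERO1 culture A lies above culture B in all WT groups.

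For KAR2, the gene of the Hsp70 of the ER lumen, the 6 group means differed by at most 0.23 on the log2 scale. The WT signals of KAR2 (YJL034W) in cultures A and B were 3440.4 and 3241.2 at 0 h, 3402.5 and 3125.4 at 2 h, and 3255.3 and 3069.5 at 6 h. In MU they were 3441.4 and 3331.4 at 0 h, 3496.6 and 3912.6 at 2 h, and 3496.6 and 2876.6 at 6 h. The only comparison with 0 h in which the KAR2 arrays did not overlap was that of MU at 2 h, where both cultures lay above both at 0 h. The log2 changes were -0.05 and -0.09 in WT at 2 h and 6 h and 0.12 and -0.09 in MU (SE 0.10 each), with adjusted p between 0.530 and 0.817. Over these 4 comparisons, the 95% intervals ran from 0.795-fold to 1.28-fold.

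Kar2 works with nucleotide exchange factors, and their genes were likewise without a call. LHS1 (YKL073W), which codes for an Hsp70-related protein of this kind, gave WT signals of 152.1 and 145.8 at 0 h, 140.0 and 110.0 at 2 h, and 129.1 and 139.5 at 6 h. Its MU signals were 172.6 and 141.5 at 0 h, 129.1 and 172.9 at 2 h, and 139.1 and 159.5 at 6 h. Both WT cultures at 37 °C lay below both at 25 °C at each time, whereas the MU groups overlapped throughout. The LHS1 change was -0.30 in WT at 2 h and -0.18 at 6 h (log2, SE 0.18, adjusted p = 0.354 and 0.542), and -0.07 at both times in MU. SIL1 (YOL031C) codes for the other exchange factor of Kar2. Its WT signals were 179.5 and 163.0 at 0 h, 167.4 and 168.0 at 2 h, and 167.7 and 168.9 at 6 h. In MU they were 151.5 and 144.8 at 0 h, 176.8 and 155.9 at 2 h, and 170.0 and 155.9 at 6 h. The lowest 2 SIL1 signals of the 12 were those of MU at 25 °C, and the MU groups at 37 °C did not overlap with them. The SIL1 change was 0.16 in MU at 2 h and 0.13 at 6 h (log2, SE 0.09, adjusted p = 0.353 and 0.346), against -0.07 and -0.05 in WT.

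SCJ1 and JEM1, which code for J-domain proteins that stimulate the ATPase of Kar2, were also without a call. SCJ1 (YMR214W) lay between 285.6 in MU culture B at 6 h and 367.3 in WT culture A at 2 h, with a median of 326.1 over the 12 arrays. Its log2 changes from 0 h were 0.04 and -0.00 in WT and 0.11 and -0.06 in MU (SE 0.12 each). JEM1 (YJL073W), whose product also acts in nuclear fusion, lay between 44.4 in WT culture B at 2 h and 65.3 in WT culture A at 0 h, with a median of 55.25. All JEM1 signals were thus below the median of their array, and duplicates differed by 0.22 to 0.36 on the log2 scale. In WT the JEM1 change was -0.28 at 2 h and -0.08 at 6 h, and in MU it was -0.05 and 0.02 (log2, SE 0.21). For both genes every group at 37 °C overlapped with its own strain at 25 °C.

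Of the genes of oxidative folding, PDI1 and ERO1 had changes of at most 0.18 in size on the log2 scale, and EUG1 gave the largest negative value among the 10 genes. PDI1 (YCL043C), the protein disulfide isomerase, had WT signals of 2042.0 and 2052.5 at 0 h, 2443.2 and 1866.7 at 2 h, and 2262.7 and 2056.2 at 6 h. Its MU signals were 1913.3 and 1945.7 at 0 h, 2062.5 and 2324.1 at 2 h, and 1928.6 and 2328.1 at 6 h. WT culture A and B at 2 h were the highest and the lowest PDI1 signals of all 12 arrays, so the groups of WT at 0 h and 2 h overlapped, while WT at 6 h and MU at 2 h lay above their 0 h cultures. The PDI1 changes were 0.04, 0.06, 0.18 and 0.14 (log2, SE 0.14) for WT at 2 h and 6 h and MU at 2 h and 6 h, with adjusted p between 0.494 and 0.898.

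ERO1 (YML130C), the thiol oxidase that reoxidizes Pdi1, was the least precise of the 10 genes. In WT its signals were 112.6 and 76.6 at 0 h, 104.5 and 71.5 at 2 h, and 114.8 and 75.8 at 6 h. In MU they were 101.8 and 94.5 at 0 h, 89.6 and 95.5 at 2 h, and 94.8 and 118.4 at 6 h. Culture A exceeded culture B in all 3 WT groups, with a gap of up to 0.59 on the log2 scale, and this gap was wider than any difference between the group means of ERO1, which spanned 0.32. The ERO1 changes lay between -0.17 and 0.10 (log2, SE 0.27), and their 95% intervals reached from -0.80 to 0.73.

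EUG1 (YDR518W), a homologue of PDI1, gave signals of 71.6 and 83.6 in WT at 0 h, 53.4 and 58.6 at 2 h, and 66.5 and 69.0 at 6 h. The MU signals were 73.9 and 59.3 at 0 h, 58.3 and 62.5 at 2 h, and 61.3 and 54.4 at 6 h. Both WT groups at 37 °C lay below the WT cultures at 25 °C without overlap, the lower of them at 2 h, and the MU groups overlapped. At 2 h in WT the EUG1 change was -0.54 (log2, SE 0.16, 95% interval -0.90 to -0.17), that is 0.689-fold, and it did not pass over all probe sets (adjusted p = 0.0765). At 6 h in WT the change was -0.24 (adjusted p = 0.337), and in MU it was -0.14 at 2 h and -0.20 at 6 h (adjusted p = 0.651 and 0.405). Between 2 h and 6 h in WT the difference was 0.30 (adjusted p = 0.521). EUG1 is a known target of Hac1. Within each strain its group means at 37 °C were below that at 25 °C. In WT they were 56.0 and 67.75 against 77.6, and in MU 60.4 and 57.85 against 66.6.

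Among the genes of the signalling branch, HAC1 gave the largest positive value and IRE1 was without a call. IRE1 (YHR079C) had signals of 50.5 and 41.8 in WT at 0 h, 42.6 and 34.1 at 2 h, and 42.3 and 46.4 at 6 h. In MU they were 34.9 and 36.5 at 0 h, 32.2 and 42.5 at 2 h, and 40.1 and 41.2 at 6 h. All 12 lay below the array medians, and MU at 6 h was the only group at 37 °C that did not overlap with its 0 h cultures. The IRE1 changes were -0.35 and -0.11 in WT and 0.04 and 0.18 in MU (log2, SE 0.19, adjusted p between 0.308 and 0.941).

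HAC1 (YFL031W) gave WT signals of 612.6 and 595.4 at 0 h, 665.0 and 597.8 at 2 h, and 794.1 and 655.4 at 6 h. Its MU signals were 647.1 and 653.7 at 0 h, 575.3 and 651.7 at 2 h, and 727.5 and 1058.3 at 6 h. In both strains the 6 h cultures lay above the 0 h cultures without overlap, and MU culture B at 6 h was the highest of the 12. The change at 6 h was 0.43 in MU (log2, SE 0.17, 95% interval 0.04 to 0.82, adjusted p = 0.108) and 0.23 in WT (95% interval -0.16 to 0.62, adjusted p = 0.382). In MU the difference between 6 h and 2 h was 0.52 (95% interval 0.13 to 0.91, adjusted p = 0.160). The MU value at 6 h depended on which of its 2 cultures was kept. Without culture A it was 0.70 against 0 h and 0.79 against 2 h, and both passed (limma, adjusted p = 0.0134 and 0.0349), whereas without culture B the change from 0 h was 0.16 (adjusted p = 0.477).

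The annotation assigns 4 further probe sets to HAC1 alone, and these were examined after the values of the chosen one were known. The probe set reported above has a plain name. On those with names ending in _i_at and _f_at, the change in MU at 6 h was 0.44 (SE 0.19, limma adjusted p = 0.146) and 0.38 (SE 0.30, adjusted p = 0.405). The ending _f_at marks possible cross-reaction. The probe set with a name ending in _s_at, which marks a sequence shared with other transcripts, gave a higher change of 0.78 (SE 0.19), which passed (limma, adjusted p = 0.0225). Its signals were 1399.2 and 1556.1 in MU at 0 h and 2052.5 and 3127.3 at 6 h, and in WT it gave 0.43 at 6 h (adjusted p = 0.150). Culture B of MU at 6 h was the highest of the 12 on all of these 4 probe sets. Without that culture the changes were 0.16, 0.11, -0.12 and 0.47 (log2) for the plain, _i_at, _f_at and _s_at probe sets, and none passed (adjusted p between 0.0713 and 0.763). The remaining probe set, also with a plain name, had signals of 1.0 to 4.8, at or near the lowest value on the arrays. The stretch of the HAC1 RNA that each probe set covers was not analysed here.

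**Figure D2:**
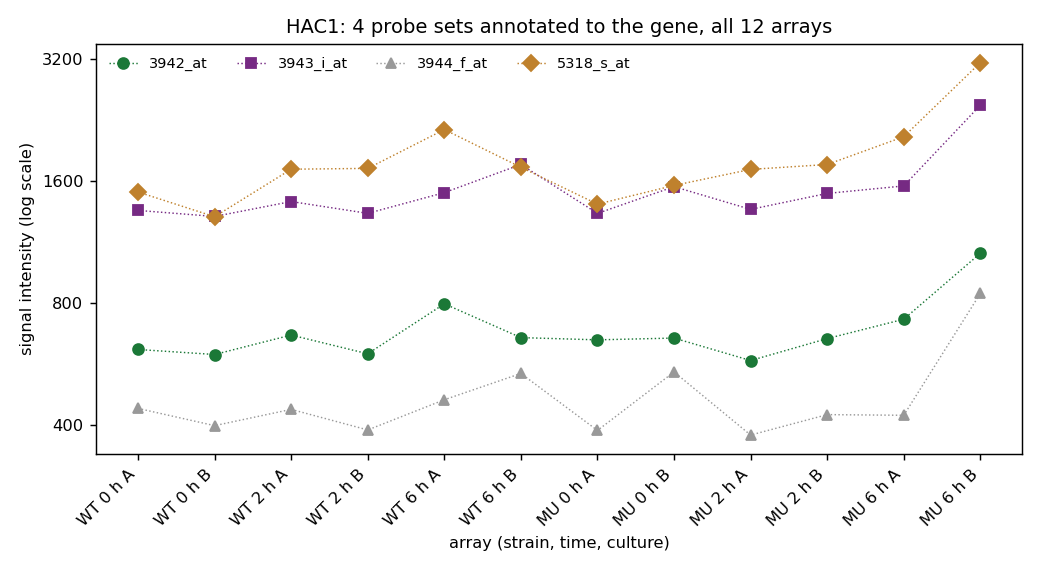
Signal intensity (log scale, vertical axis) of 4 of the 5 probe sets annotated to HAC1 alone, on each of the 12 arrays (horizontal axis: strain, time and culture); dotted lines only join the points of a probe set. On all 4 the highest point is MU culture B at 6 h, at 1058.3 for the plain, 2455.1 for the _i_at, 842.3 for the _f_at and 3127.3 for the _s_at probe set.

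As a group, the 10 genes had median changes near 0 after the shift. The median log2 change was -0.12 in WT at 2 h and -0.07 at 6 h, beside -0.02 and -0.04 over all probe sets, and -0.01 in MU at 2 h and 0.06 at 6 h, beside -0.03 and -0.06. Of the 40 changes from 0 h, 24 were negative, and they ranged from -0.54 for EUG1 to 0.43 for HAC1. The 95% intervals of the 40 changes lay between 0.535-fold and 1.76-fold. In each of the 4 comparisons the intervals of all 10 genes thus stayed within a halving and a doubling, while this held for 57.3% of all probe sets in WT at 2 h, 52.3% in WT at 6 h, 57.9% in MU at 2 h and 50.6% in MU at 6 h. Of the 40 intervals, 2 did not include 0, those of EUG1 in WT at 2 h and of HAC1 in MU at 6 h.

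Counts of groups without overlap stood below the background in these comparisons. In WT at 2 h the arrays of 2 of the 10 genes did not overlap with those at 0 h (LHS1 and EUG1, both lower), against 54.2% of all probe sets. At 6 h in WT there were 4 (HAC1 and PDI1 higher, LHS1 and EUG1 lower), against 59.0%. In MU there were 3 at 2 h (KAR2, PDI1 and SIL1, all higher), against 55.1%, and 3 at 6 h (HAC1, IRE1 and SIL1, all higher), against 60.4%. Between 2 h and 6 h, limma called 0 of the 10 genes in WT, with 0.0645% of all probe sets called, and 0 in MU, with 0.624% called. At an unadjusted p under 0.05 the counts were 0 in WT (background 11.5%) and 1 in MU, HAC1 (18.8%), and the rank difference method gave 0 in WT (0.0538%) and 0 in MU (1.56%). Without overlap between these times were EUG1 in WT, higher at 6 h (1 gene, background 37.8%), and in MU HAC1, higher, and SCJ1, lower at 6 h (2 genes, 46.1%).

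**Figure D3:**
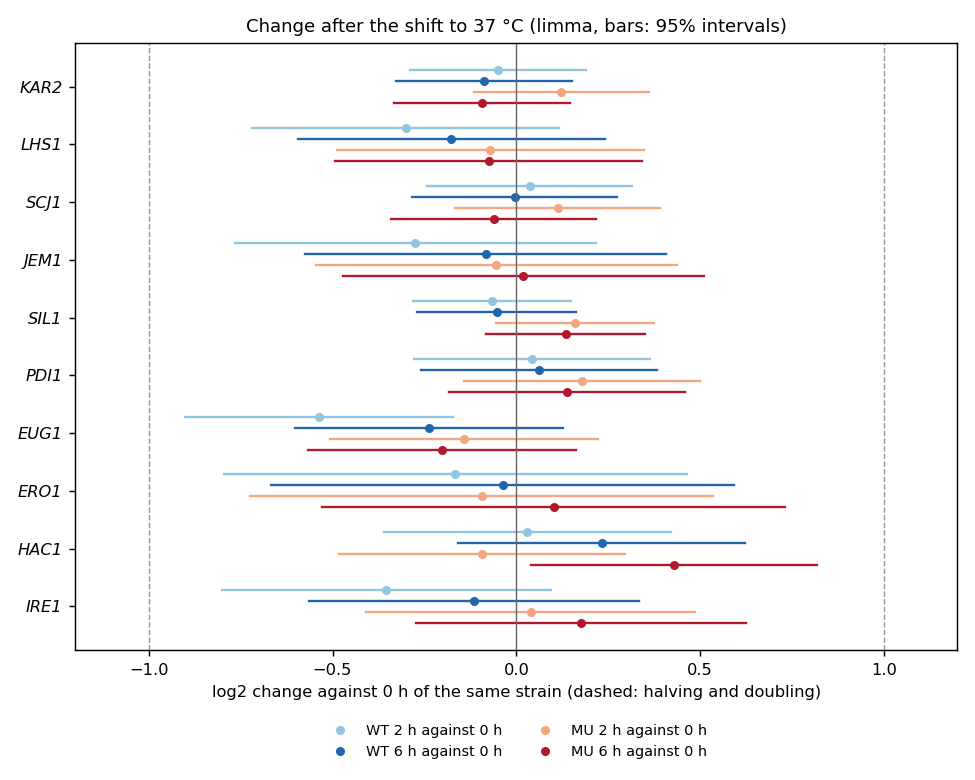
Log2 change from 0 h of the same strain (horizontal axis) for each of the 10 genes, with 95% intervals from limma as bars; light and dark blue are WT at 2 h and 6 h, light and dark red MU at 2 h and 6 h, and dashed lines mark a halving and a doubling. All 40 intervals lie between the dashed lines, and only those of EUG1 in WT at 2 h (-0.90 to -0.17) and HAC1 in MU at 6 h (0.04 to 0.82) leave out 0.

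The comparison of the strains at each time asks whether the TOR2 allele is accompanied by other levels of these RNAs, and no gene passed. Limma called 0 of the 10 at 0 h, where 0.0323% of all probe sets were called, and 0 at 2 h and at 6 h, where none of the 9298 probe sets was called. At an unadjusted p under 0.05 the counts were 1 at 0 h (background 4.62%), 0 at 2 h (5.46%) and 0 at 6 h (8.73%), and the rank difference method gave 0 at 0 h, where it called no probe set at all, at 2 h (0.0108%) and at 6 h (0.0430%). The 30 differences, MU minus WT, ranged from -0.41 to 0.29 on the log2 scale, 15 of them negative. Their 95% intervals lay between 0.553-fold and 1.76-fold, and thus within a halving and a doubling. This held for 68.2% of all probe sets at 0 h, 68.1% at 2 h and 66.3% at 6 h. The lowest adjusted p among the 30 differences was 0.671 (limma), for HAC1 at 6 h.

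At 25 °C the MU cultures lay apart from WT for 4 of the 10 genes, against 34.6% of all probe sets. SIL1, PDI1 and IRE1 were lower and HAC1 was higher there. For SIL1 the difference at 0 h was -0.23 (log2, SE 0.09, 95% interval -0.44 to -0.01, adjusted p of 1), and for IRE1 it was -0.41 (SE 0.19, 95% interval -0.85 to 0.04). At 37 °C the SIL1 difference was -0.00 at 2 h and -0.04 at 6 h, and that of IRE1 was -0.01 and -0.12. At 2 h the arrays of 1 gene, KAR2, did not overlap (32.3% of all probe sets), with both MU cultures above WT by 0.19 (95% interval -0.05 to 0.43, adjusted p = 0.913). At 6 h, EUG1 and IRE1 were lower in MU without overlap (32.6% of all probe sets), with differences of -0.22 and -0.12 (adjusted p = 0.716 and 0.920). HAC1 at 6 h was higher in MU by 0.29 (95% interval -0.10 to 0.68), and WT culture A, at 794.1, lay between the MU cultures.

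**Figure D4:**
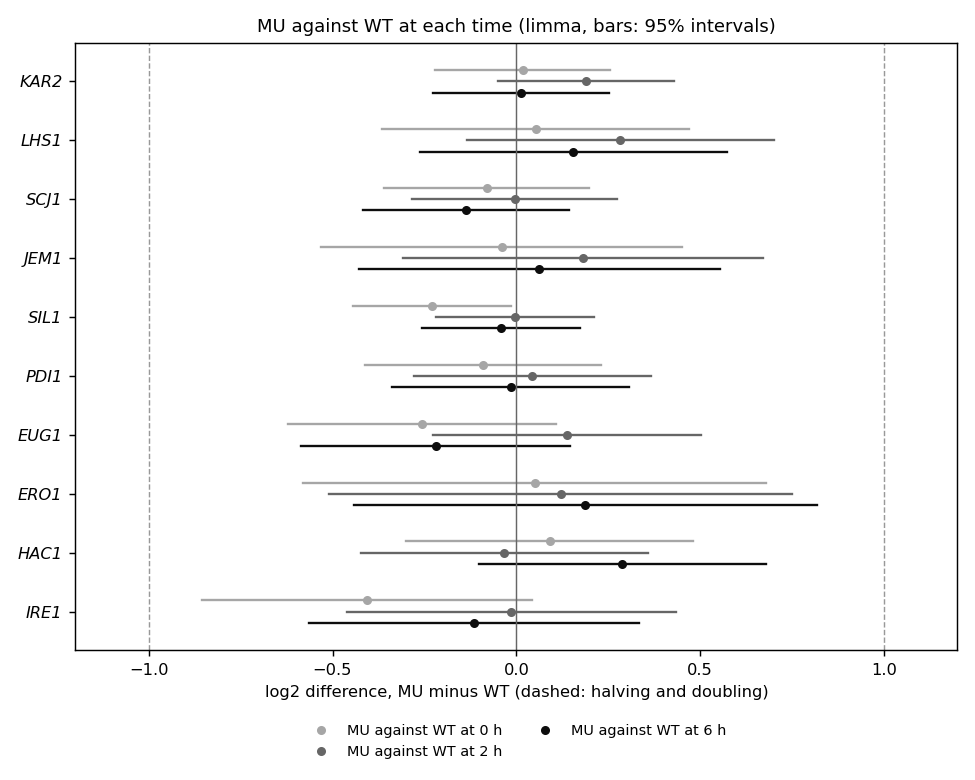
Log2 difference between the strains, MU minus WT (horizontal axis), for each of the 10 genes at 0 h, 2 h and 6 h (light grey, dark grey and black), with 95% intervals from limma as bars and dashed lines at a halving and a doubling. All 30 intervals lie between the dashed lines, and that of SIL1 at 0 h (-0.44 to -0.01) is the only one without 0.

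The change of MU minus the change of WT was tested directly, and 0 of the 10 genes passed at 2 h or at 6 h, as did 0 of all 9298 probe sets (limma, also 0 of the 10 at an unadjusted p under 0.05, where the background was 4.18% and 5.01%). The median of the 10 values was 0.20 at 2 h and 0.10 at 6 h, beside -0.00 and -0.02 over all probe sets. These medians rest on the same MU and WT cultures at 0 h that enter all 10 genes. For EUG1, lower at 2 h in WT and less so in MU, the difference of the changes at 2 h was 0.39 (log2, SE 0.22, 95% interval -0.12 to 0.91). For HAC1 at 6 h it was 0.20 (SE 0.24, 95% interval -0.35 to 0.75, adjusted p = 0.964). In each of these tests the interval of 9 of the 10 genes stayed within a halving and a doubling. This held for 52.1% of all probe sets at 2 h and 51.0% at 6 h. The exceptions among the 10 genes reached 1.03 (IRE1 at 2 h and ERO1 at 6 h).

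The order of the 6 groups was examined for each gene. KAR2 was highest in MU at 2 h (mean 3705, n = 2) and lowest in WT at 6 h (3162), EUG1 highest in WT at 0 h (77.6) and lowest in WT at 2 h (56.0), and HAC1 highest in MU at 6 h (892.9) and lowest in WT at 0 h (604.0). For none of the 10 genes were neighbours in this order further apart than the distance from a difference to the end of its 95% interval. The widest such step was 0.29 (log2), from WT to MU at 6 h in HAC1, where that distance was 0.39. Sorting keeps steps between neighbours small, so this does not show that the groups were alike. From the lowest to the highest group, EUG1 spanned 0.54, HAC1 0.52 and SIL1 0.23 (log2). These spans exceeded that distance (0.36, 0.39 and 0.22), with the end groups picked as the extremes.

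Other genes of ER protein handling were taken from 6 lists with 53 genes, all of them measured, and a minority changed. At 2 h in WT, 4 of the 53 rose and 0 fell, where 5.38% of all probe sets rose and 3.27% fell. At 6 h in WT, 5 rose and 4 fell (9.84% and 9.49% of all probe sets). In MU, 4 rose and 1 fell at 2 h (4.87% and 3.11%), and 6 rose and 9 fell at 6 h (10.8% and 11.2%). The median log2 changes of the 53 genes were -0.09, -0.04, -0.08 and -0.10 in the same order. Between 2 h and 6 h and between the strains limma called none of the 53.

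Of 6 further ER oxidoreductases and prolyl isomerases, 1 rose in all 4 comparisons. This was CPR5, which codes for a cyclophilin of the ER lumen. Its signals in cultures A and B were 756.6 and 777.8 in WT at 0 h, 1258.2 and 1287.0 at 2 h, and 1392.2 and 1052.5 at 6 h. In MU they were 828.5 and 867.8 at 0 h, 1269.9 and 1175.0 at 2 h, and 1266.0 and 1127.8 at 6 h. All 8 cultures at 37 °C lay above all 4 at 25 °C. In WT, CPR5 rose by 0.70 at 2 h and by 0.63 at 6 h, and in MU by 0.52 and 0.49 (log2, SE 0.12, adjusted p between 0.0119 and 0.0414). Among 8 genes of glycoprotein folding and glycan trimming, CNE1, the calnexin of yeast, rose in MU by 0.93 at 2 h and 0.81 at 6 h and in WT by 0.56 at 6 h (SE 0.13, adjusted p = 0.00689, 0.00527 and 0.0244), and its value in WT at 2 h was 0.44 (adjusted p = 0.0847). The other 7 genes of that list had no call.

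ER-associated degradation extracts misfolded proteins to the cytosol for the proteasome, and 3 of its 14 genes rose in both strains at 6 h. Of all probe sets, 9.84% rose in WT and 10.8% in MU at that time. CUE1, the membrane anchor of the ubiquitin-conjugating enzyme Ubc7, rose by 0.59 and 0.57 in WT and 0.40 and 0.42 in MU at 2 h and 6 h (log2, SE 0.08, adjusted p between 0.00299 and 0.0230). HRD3, a subunit of the Hrd1 ubiquitin ligase complex, rose by 0.44 and 0.54 in WT and 0.43 and 0.56 in MU (SE 0.10, adjusted p between 0.00869 and 0.0478). UBC7 rose at 6 h by 0.30 in WT and 0.53 in MU (SE 0.08). UBC6, another ubiquitin-conjugating enzyme of the ER membrane, fell by 0.62 in WT at 6 h (SE 0.11, adjusted p = 0.00839), and its value in MU was -0.35 (adjusted p = 0.0558). The median change of these 14 genes was 0.10 in WT at 2 h, 0.09 in WT at 6 h, 0.21 in MU at 2 h and 0.29 in MU at 6 h.

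Genes of protein entry into the ER and of N-glycosylation accounted for most of the falls in MU at 6 h. Of 13 genes of translocation and signal peptidase, 5 fell and 1 rose there, with a median of -0.28, and 2 fell in WT at 6 h. Of all probe sets, 11.2% fell and 10.8% rose in MU at 6 h, and 9.49% fell in WT. SEC66, a subunit of the Sec63 complex, fell by 0.68 in WT at 6 h and by 0.62 and 0.81 in MU at 2 h and 6 h (log2, SE 0.13, adjusted p between 0.00515 and 0.0306). In MU at 6 h, SBH1 and SSS1 of the Sec61 complex fell by 0.82 (SE 0.21) and 0.60 (SE 0.14), and SEC63, whose J domain recruits Kar2 to the channel, fell by 0.75 (SE 0.22). Named after their values were seen, SEC61, the channel itself, fell at 6 h by 0.48 in WT and 0.28 in MU (SE 0.09, adjusted p = 0.00896 and 0.0496), and SPC2, a subunit of signal peptidase, rose by 0.42 in WT at 2 h and 0.33 in MU at 6 h (SE 0.09). Of 9 subunits of the oligosaccharyltransferase, 3 fell in MU at 6 h, namely OST5 by 0.57, STT3, the catalytic subunit, by 0.43, and OST1 by 0.35, and 0 were called elsewhere. Of the 3 genes of HAC1 RNA processing and the shut-off of Ire1, PTC2, a phosphatase that acts on Ire1, fell at 6 h by 0.38 in WT and 0.46 in MU (SE 0.11, adjusted p = 0.0425 and 0.0179).

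Several chaperone genes of other compartments passed the test on the same arrays. Of 9 measured genes of the cytosolic Hsp70 system and the disaggregase, 3 rose in each comparison with 0 h. In WT 0 and 2 fell at 2 h and 6 h, and in MU 1 and 4. Of all probe sets, 5.38% and 9.84% rose in WT at these times and 4.87% and 10.8% in MU. The shares that fell were 3.27% and 9.49% in WT and 3.11% and 11.2% in MU. HSP104, the disaggregase, had signals of 161.8 and 153.2 in WT at 0 h and 442.1 and 414.8 at 2 h, and rose by 1.41 (log2, SE 0.14, adjusted p = 0.00148). SSE2, an exchange factor of the cytosolic Hsp70s and thus a counterpart of LHS1, rose by 1.34 in WT at 2 h (SE 0.09, adjusted p = 0.000454) and by 1.91 in MU at 6 h (adjusted p = 3.25e-05). The third was SSA4, a heat-inducible Hsp70, with 0.62 in WT at 2 h (SE 0.09, adjusted p = 0.00712), and those that fell included YDJ1, a J-domain protein of the cytosol, by 0.49 in WT and 0.69 in MU at 6 h (SE 0.07), both named after their values were seen. FES1 and SSE1, also exchange factors of the cytosolic Hsp70s and named in the same way, were below 0 in every comparison with 0 h. FES1 changed by -0.98 and -0.94 in MU at 2 h and 6 h (SE 0.17, limma adjusted p = 0.0136 and 0.00728). SSE1 changed by -0.48 in WT and -0.49 in MU at 6 h (SE 0.15), without a call. Of 8 mitochondrial chaperones and proteases, 3 rose in WT at 2 h and 4 in each other comparison, and 1 fell in MU at 6 h. HSP78, a disaggregase of the matrix, rose by 2.37 and HSP10, the co-chaperonin, by 0.88 in WT at 2 h (SE 0.34 and 0.19, adjusted p = 0.00681 and 0.0300). Median log2 changes of the cytosolic list in the WT strain were 0.21 at 2 h and 0.01 at 6 h. For MU the corresponding medians lay below 0, at -0.13 and -0.39. On the mitochondrial list, WT gave medians of 0.11 and 0.14, MU those of 0.04 and 0.32. The difference between these lists and the 10 genes was not tested.

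**Figure D5:**
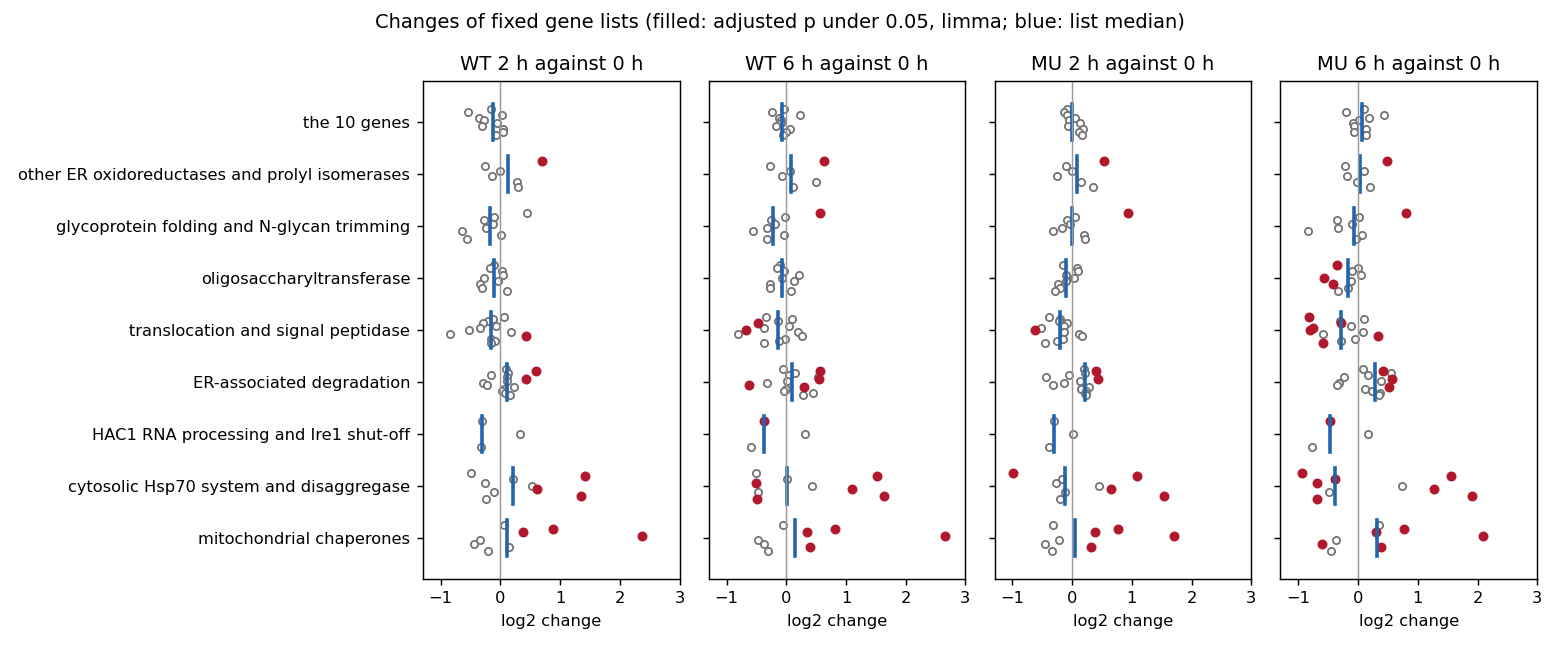
Log2 change from 0 h (horizontal axis) of each gene of the 10 and of 8 lists of other ER, cytosolic and mitochondrial genes, for WT and MU at 2 h and 6 h; each point is a gene, filled red where limma gave an adjusted p under 0.05, and blue bars are list medians. The 10 genes have no filled point and span -0.54 to 0.43, while points of the cytosolic and mitochondrial lists reach 1.91 and 2.66.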

How the data were processed

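The deposited values are linear signal intensities, which the authors made from the scanned images with MAS 5.0. The methods also name Matlab scripts for further processing, without saying whether the deposited values had passed them. Between 403 and 592 probe sets of an array were at the lowest intensity, 1. Above it, the deposited signals followed nearly the same distribution on all 12 arrays, and the step that made this is not stated. The close array medians and the small shifts from normalization are thus largely a property of the deposited values. Groups came from the sample labels and temperatures from the methods. Log2 intensities of 9298 probe sets, without 37 of the 9335 that are foreign controls, were quantile-normalized and fitted with limma 3.58.1 in R 4.3.3, with 6 groups and a trend of the variance on the mean (6 residual degrees of freedom). P-values were adjusted over all probe sets of a comparison (Benjamini and Hochberg) and called under 0.05. Each p-value sets a difference against the spread between independently grown cultures, estimated over the 6 groups together. No offset was added. A rank difference test was written in Python 3.11.15 after the study's description and used as an alternative. It calls at a Benjamini and Hochberg adjusted p under 0.10 in place of the FDR estimate of the methods, and its smoothing was chosen here, so its counts are not those of the original procedure.

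Probe sets were named from the platform's annotation, which gives 1 symbol for 6504 of them, and locus tags from RefSeq. Named were all 10 genes. Of each ER list, up to 4 genes with the largest change among those past the threshold were named, of the lists of cytosolic and mitochondrial chaperones the 2 with the largest change in WT at 2 h, and the 5 genes most like KAR2 and like ERO1. Of 12 cytosolic genes 9 had a plain probe set of their own. The genes and lists were chosen with earlier results of these data known. No level was compared between probe sets. Array data hold no read depth, and 2 cultures in a group limit the precision.

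The labels do not say whether cultures with the same letter belong together. Over the 15 pairs of groups, the differences between A and B correlated between -0.102 and 0.126. No shift shared by a letter was thus seen across the probe sets, which cannot tell whether cultures were paired. Both tests were tested on simulated data, where the share of false calls was above the nominal one for limma and below it for the rank difference test. Alternatives were median scaling, an offset of 16, a fit of the 6973 probe sets left without the dimmest 25%, a fit with no variance trend, a replicate block, the rank difference method and leaving out each array. Sequences and genome coordinates of the genes were not used here.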

Additional observations from a re-analysis of the deposited data

How the results depend on the processing

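The count of the 10 genes called was 0 in all 11 comparisons with median scaling, with an offset of 16, without the dimmest 25% of probe sets, without the variance trend and with the replicate block, and 0 in the 9 comparisons the rank difference method could be run on. Leaving out each array in turn, the count ranged from 0 to 1 for MU at 6 h against 0 h and from 0 to 1 for MU at 6 h against 2 h. The gene called was HAC1, without MU culture A at 6 h, and the count was 0 in the other 9 comparisons. The limma alternatives gave 630 values of single genes in the comparisons with 0 h and between the strains. Of these, 0 changed direction among changes larger than their standard error. For HAC1 in MU at 6 h against 0 h the change was 0.70 without culture A and 0.16 without culture B (log2). Small changes, none larger than its standard error, took the other sign in 61 cases. An alternative chosen after seeing the data, the HAC1 probe set with a name ending in _s_at, also passed in MU at 6 h (0.78, limma adjusted p = 0.0225). EUG1 in WT at 2 h passed under none of the alternatives, and the rank difference method gave it an adjusted p of 0.346. The cause of the spread between the HAC1 values was not tested. A group left with a single array was taken to vary like the others. Signals of JEM1, EUG1 and IRE1 lay near or below the array medians.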

Other observations

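The 10 genes did not vary as a block over the 12 arrays. The 45 pairs among them had a median Pearson r of 0.19 (log2 signals, 12 arrays), from -0.48 for KAR2 and HAC1 to 0.59 for ERO1 and HAC1. These values are descriptions over arrays that share their groups and cultures. Among 3570 genes with a mean signal above the median, those most like KAR2 over the 12 arrays were GEA1 (r = 0.93), which codes for an exchange factor of the Arf GTPases in Golgi transport, MNN5 (0.87), a mannosyltransferase of the Golgi, RCL1 (0.85), which acts in ribosomal RNA processing, LAC1 (0.82), a subunit of ceramide synthase, and ELO3 (0.79), an elongase of very long chain fatty acids. None of the 10 genes was among these genes most like KAR2. The genes most like ERO1 were HOG1 (0.88), the kinase of the osmotic stress pathway, PDC1 (0.88), the pyruvate decarboxylase, APM4 (0.77), YNL320W (0.77) and AMD1 (0.77). Both rankings keep the 5 highest of 3570 correlations over 12 arrays, and how high unrelated genes reach was not tested. In ERO1 the gaps between cultures A and B of WT, up to 0.59 on the log2 scale, exceeded the range of its group means (0.32).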
